A study of Mus musculus with 18 samples.

Results

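The 9 genes Acta1, Acta2, Tagln, Myl9, Cnn1, Tpm1, Tpm2, Ctgf and Cyr61, which belong to the contractile apparatus or serve as readouts of SRF and YAP, were followed through all libraries of the series. They comprise the actins Acta1 and Acta2, the actin-binding proteins Tagln, Cnn1, Tpm1 and Tpm2, the regulatory light chain Myl9, and the secreted matricellular proteins Ctgf and Cyr61. They were taken by symbol from the 24318 genes of the deposited table by a rule that reads no value, although the set itself was drawn up with earlier results of these data known. All 9 were found, and all 9 passed the filter on low counts with fragments in every library. Polyadenylated RNA came from immortalized mouse embryonic fibroblasts of genotype MafF-/-::MafG-/-::MafK-/- (F0G0K0), so every group, controls included, lacked MafF, MafG and MafK, the small Maf partners of CNC factors such as Nrf1. Mock cells were set against cells expressing T-N1G, a tethered Nrf1-MafG heterodimer whose genotype label reads T-NG1. MG132, a proteasome inhibitor, was given to both lines for 12 h at 0.3 µM or 1.0 µM, or vehicle in its place, in medium with 10% serum, which gave 6 groups of 3 libraries. The labels do not give the promoter behind T-N1G or whether a line is 1 clone, so T-N1G and any other difference between the lines cannot be told apart. They also do not say whether libraries came from separate cultures. The spread behind every p-value is thus that between libraries alone and may be technical.

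Fibroblasts become contractile when they assemble stress fibres with smooth muscle actin, and cells in that state are called myofibroblasts. Serum response factor (SRF) drives many of their genes from CArG boxes: with the myocardin-related cofactors MRTF-A and MRTF-B, which enter the nucleus when free actin monomer is used up, it acts on actin and contractile genes, and with ternary complex factors downstream of growth factor signals it acts on immediate-early genes. YAP and TAZ are coactivators of the TEAD factors, which bind M-CAT elements, and the kinases of the Hippo pathway hold them in the cytoplasm. Ctgf and Cyr61 are among the most used readouts of YAP and TEAD, and Cyr61 and Acta2 also answer to SRF. Transforming growth factor beta is the classical inducer of Acta2, Tagln and Ctgf in fibroblasts.

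Libraries held 18164382 to 21196909 fragments. The label of the cells was checked against marker genes. The 10 fibroblast markers (among them Col1a1, Col1a2 and Pdgfrb) summed to 8372 to 13163 CPM (a gene's fragments relative to its library's total, scaled by edgeR's TMM factors) over the 18 libraries, with Lum at 0 in every library of 3 groups. Of the 9 tested, 7 fell and 1 rose in T-N1G cells at each dose (medians -0.99 and -1.36), and in mock cells 3 fell and 2 rose at 0.3 µM and 5 fell and 2 rose at 1.0 µM (medians -0.25 and -0.71), beside the falls of contractile genes described below. Of all genes tested, 30.3% fell and 29.1% rose in T-N1G cells at 0.3 µM, and 38.9% and 37.5% at 1.0 µM. In mock cells 28.1% fell and 25.0% rose at 0.3 µM, and 37.4% and 32.4% at 1.0 µM. The numbers of markers called in mock cells are near the shares of all genes called, 53.1% and 69.7%. The 11 smooth muscle and pericyte markers summed to 128 to 393 CPM. Leukocyte markers summed to 2.46 to 2.87 CPM in mock and 1.81 to 2.44 CPM in T-N1G libraries under vehicle. They reached 4.75 to 4.91 and 3.67 to 4.15 CPM at 0.3 µM, and 4.65 to 4.73 and 5.64 to 10.0 CPM at 1.0 µM. All 3 tested of the 6 were called higher at 1.0 µM in both lines. The 12 skeletal and cardiac muscle markers summed to 7.13 to 67.9 CPM. Myod1, Myog and Myf5 were at 0 in every mock library under vehicle, but each had fragments in at least 1 T-N1G library under vehicle. Myod1 also had fragments in mock cells at 1.0 µM and in T-N1G cells at both doses, and Myog in mock cells at 0.3 µM. Mafg, absent by genotype, had 6 to 25 fragments in mock libraries and 3079 to 69014 in T-N1G libraries, in which it is part of the fusion. In T-N1G libraries Mafg stood at 142 to 172 CPM under vehicle. It rose to 693 to 886 CPM at 0.3 µM and 2701 to 4238 at 1.0 µM. Nfe2l1, the gene of Nrf1, stood there at 1022 to 1169, 4012 to 4986 and 14686 to 21501 CPM in the same order. Mock libraries held 273 to 393 CPM of Nfe2l1. The T-N1G groups thus differed in Mafg and Nfe2l1 RNA as well as in dose, and its part in the values below was not tested. Over all genes the typical spread within a group was wider at 1.0 µM, with a median SD of log2 CPM of 0.176 for mock and 0.204 for T-N1G libraries, than under vehicle, with 0.0651 and 0.0813. Endothelial markers, at 5.11 to 6.90 CPM in sum under vehicle, reached 18.6 to 26.1 CPM at 0.3 µM and 64.6 to 87.4 CPM at 1.0 µM in mock libraries, and 6.02 to 9.36 and 25.5 to 40.9 CPM in T-N1G libraries. Epithelial markers went from 16.1 to 20.4 CPM under vehicle to 55.7 to 59.6 and 46.9 to 73.8 CPM in mock libraries and to 27.2 to 31.9 and 21.1 to 38.4 CPM in T-N1G libraries, and the muscle markers reached 32.0 to 67.9 CPM in mock libraries at 1.0 µM. The part of all these markers in the values below was not tested. In bulk samples such as these, fewer cells of a kind and less RNA per cell cannot be told apart.

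The promoters are shown first, because SRF and TEAD act through short elements of the kind that can be read there. RefSeq promoter sequence (GRCm38.p6) matched 7 of the 9 genes by symbol or synonym. Tagln and Ctgf are named only. The 250 bases before each start were searched on both strands for the CArG box (CC, 6 bases of A or T, GG) and for the M-CAT hexamer CATTCC or its reverse complement GGAATG, which do not overlap in these windows. An exact CArG box was found in Acta1, 73 bases before the start, and in Myl9, 161 bases before it. Of all 32851 promoter windows of this length, 1.47% held one. With at most 1 mismatch allowed, Acta2 held CArG-like letters 84 and 34 bases before the start, Tpm1 221 and 80, Acta1 a further pair at 205 and 154, and Myl9 a further one at 99, and 18.6% of all windows held at least 1. M-CAT letters stood 46 bases before the start in Acta1, 146 in Acta2, 56 in Tpm1 and 103 in Cyr61, against 12.6% of all windows. Cnn1 and Tpm2 held no match in these windows. All distances are counted from the annotated start. The letters TATAAA, left in lower case below, began 7 bases before it in Acta1 and 25 in Cyr61. Whether transcription begins at the annotated start in these cells was not tested. A match is a description of letters and not a site of binding. Capitals mark both kinds of match in the windows of the 5 genes with any, each written 5′ to 3′ on the gene's strand and ending 1 base before the start (Acta1 chr8:123894776-123895025, minus strand; Acta2 chr19:34255374-34255623, minus strand; Myl9 chr2:156775214-156775463, plus strand; Tpm1 chr9:67049214-67049463, minus strand; Cyr61, named Ccn1 in RefSeq, chr3:145649986-145650235, minus strand).
Acta1: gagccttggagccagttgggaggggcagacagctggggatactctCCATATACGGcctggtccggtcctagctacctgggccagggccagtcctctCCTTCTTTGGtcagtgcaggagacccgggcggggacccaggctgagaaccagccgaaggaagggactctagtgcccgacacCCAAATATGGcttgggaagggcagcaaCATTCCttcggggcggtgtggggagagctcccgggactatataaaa
Acta2: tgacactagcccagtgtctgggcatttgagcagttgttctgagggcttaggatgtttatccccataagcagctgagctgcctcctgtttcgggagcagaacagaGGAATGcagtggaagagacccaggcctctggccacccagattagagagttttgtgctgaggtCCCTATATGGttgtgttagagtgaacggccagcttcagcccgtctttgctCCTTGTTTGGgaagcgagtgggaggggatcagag
Myl9: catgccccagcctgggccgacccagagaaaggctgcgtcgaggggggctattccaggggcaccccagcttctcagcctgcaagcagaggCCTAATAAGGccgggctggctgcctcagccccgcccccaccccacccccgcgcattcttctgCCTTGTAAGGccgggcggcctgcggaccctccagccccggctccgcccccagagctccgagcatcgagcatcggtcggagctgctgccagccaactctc
Tpm1: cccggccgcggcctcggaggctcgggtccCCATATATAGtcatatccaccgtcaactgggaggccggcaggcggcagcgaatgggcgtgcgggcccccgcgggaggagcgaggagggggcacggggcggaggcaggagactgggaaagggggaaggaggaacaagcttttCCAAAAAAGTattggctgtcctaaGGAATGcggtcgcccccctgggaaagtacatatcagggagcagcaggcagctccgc
Cyr61: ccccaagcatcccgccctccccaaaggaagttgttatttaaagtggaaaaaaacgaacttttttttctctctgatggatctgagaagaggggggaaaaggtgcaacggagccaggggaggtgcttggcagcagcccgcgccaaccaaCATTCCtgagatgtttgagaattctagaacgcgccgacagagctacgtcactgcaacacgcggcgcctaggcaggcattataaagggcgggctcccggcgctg

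Levels between genes were compared per length, as the deposited FPKM (fragments relative to transcript length and library size). In mock cells under vehicle Tpm1 stood highest at 508 ± 26.0 FPKM (mean ± SD, n = 3), followed by Acta2 at 281 ± 25.9 and Cyr61 at 225 ± 18.6. Tagln at 124 ± 12.7, Tpm2 at 117 ± 2.20 and Ctgf at 116 ± 12.9 FPKM came next, and the libraries of these neighbours overlapped. Myl9 stood at 14.1 ± 3.71, Acta1 at 3.75 ± 0.192 and Cnn1 at 1.09 ± 0.325 FPKM. The smooth muscle calponin Cnn1 and the skeletal actin Acta1 were thus present at a trace beside Acta2, with 18 to 95 and 21 to 165 fragments per library, and their values carry the counting error of such numbers. At 1.0 µM MG132 the order was led by Ctgf at 824 ± 624 and Cyr61 at 783 ± 306 FPKM in mock cells. In T-N1G cells Cyr61 at 1149.7 ± 202 FPKM stood ahead of Ctgf at 627 ± 410.0. The libraries of Ctgf and Cyr61 overlapped in both lines.

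In both lines at 1.0 µM MG132 the secreted pair Ctgf and Cyr61 rose while Acta1, Acta2, Tpm1 and Tpm2 fell, and of the remaining contractile genes Tagln passed downwards in mock cells and Myl9 in T-N1G cells. For neither of these did the difference of the lines' responses itself pass in this fit. Mock libraries of Myl9 at 1.0 µM also lay below those under vehicle without overlap, but that fall did not pass. All tests are edgeR's quasi-likelihood test over 13258 genes with Benjamini-Hochberg adjustment, called at an adjusted p under 0.05, and log2 differences are given with the test's standard error. In mock cells 1 of the 9 rose and 3 fell at 0.3 µM, where 25.0% of all genes tested were called higher and 28.1% lower (53.1% in all). At 1.0 µM 2 rose and 5 fell, where 32.4% of genes were called higher and 37.4% lower (69.7% in all). In T-N1G cells 1 rose and 4 fell at 0.3 µM, where the shares were 29.1% higher and 30.3% lower (59.4% in all). At 1.0 µM 2 rose and 5 fell, where they were 37.5% and 38.9% (76.4% in all). A count of 7 of 9 is near the share of genes at large and is no result about these genes. The median log2 difference over the 9 at 1.0 µM was -0.69 for mock cells and -0.78 for T-N1G cells, beside -0.042 and -0.0057 over all genes. The 2 doses share their vehicle libraries. Between doses, from 0.3 to 1.0 µM, 2 rose and 1 fell in mock cells, where 21.8% of all genes were called higher and 27.8% lower (49.6% in all). In T-N1G cells 2 rose and 3 fell over that step, where 29.3% were higher and 30.8% lower (60.0% in all).

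Between the lines, under vehicle, 3 of the 9, Acta2, Myl9 and Tpm1, were higher in T-N1G cells and none was lower, where 8.43% of all genes tested were called higher and 7.72% lower (16.1% in all). The median over the 9 was 0.48 on the log2 scale, beside 0.002 over all genes. At 0.3 µM Acta2 and Tagln were higher and none was lower, where 25.0% of all genes were called higher and 23.5% lower (48.5% in all). At 1.0 µM Acta2 and Tagln were higher and Tpm1 and Tpm2 lower in T-N1G cells, where 30.7% of all genes were called higher and 31.3% lower (61.9% in all). Libraries of the 2 lines did not overlap for 3 of the 9 genes at each treatment, against 49.2% of all genes under vehicle, 66.4% at 0.3 µM and 54.7% at 1.0 µM. Vehicle and treated libraries did not overlap for 7 of 9 at 0.3 µM and 8 of 9 at 1.0 µM in mock cells, against 72.9% and 72.5% of all genes, and for 4 and 7 of 9 in T-N1G cells, against 70.8% and 75.5%. Libraries at 0.3 and 1.0 µM did not overlap for 4 of 9 genes in each line, against 57.0% of all genes in mock and 59.7% in T-N1G cells.

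**Figure D1:**
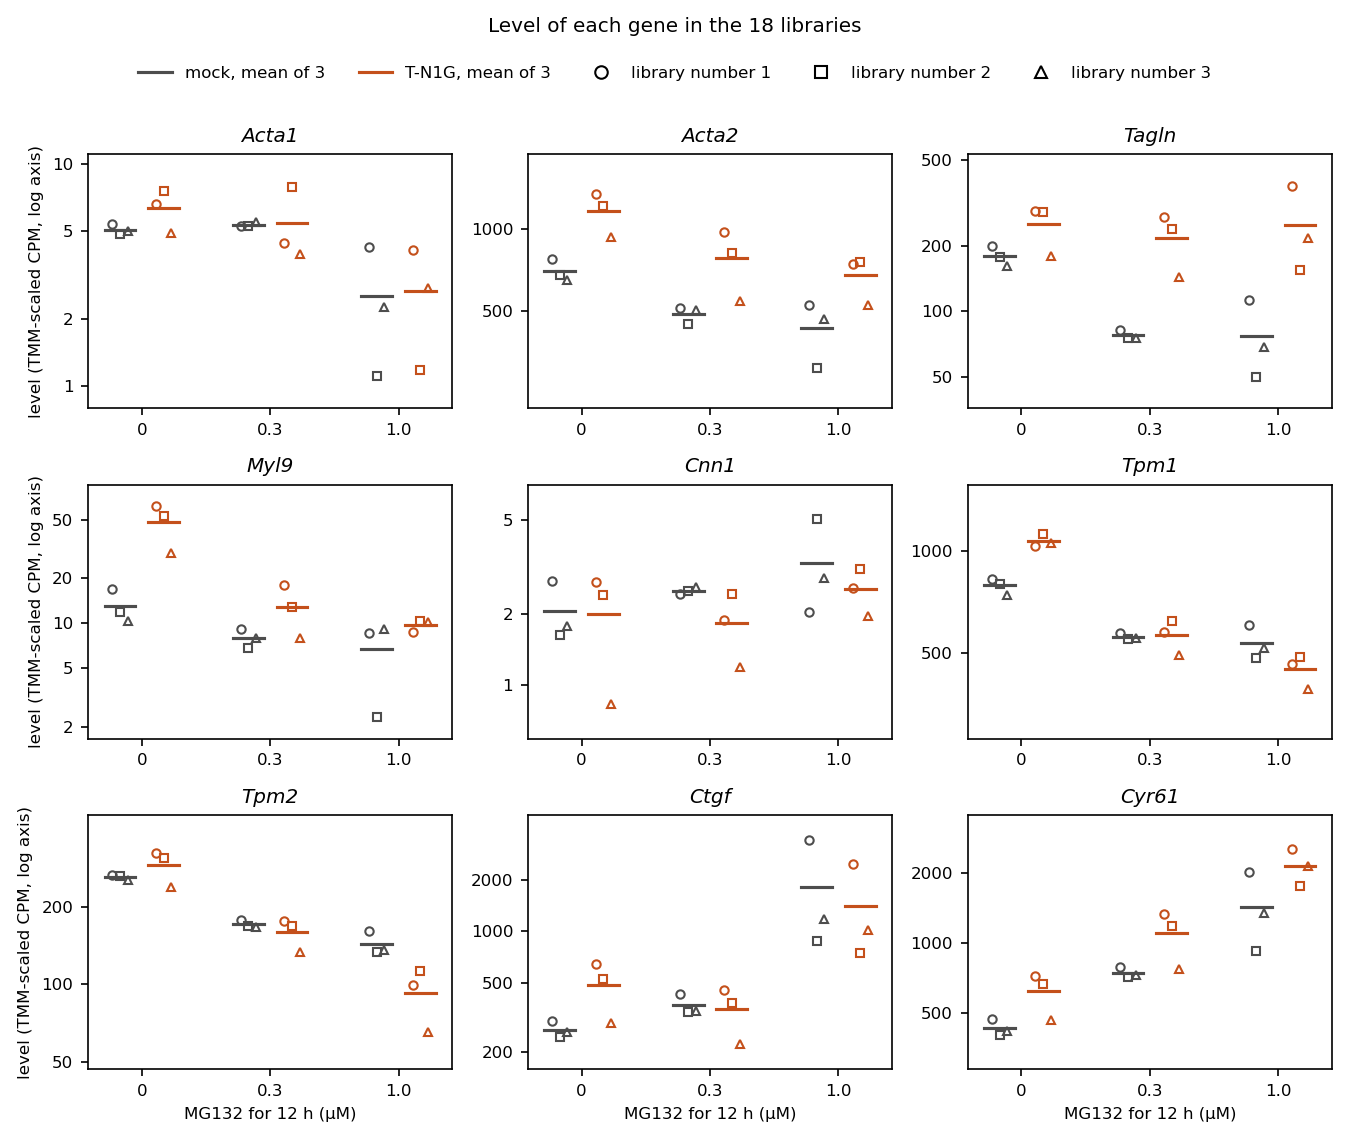
Level of each gene (TMM-scaled CPM, log axis) against the MG132 dose in µM, with 0 for vehicle. Each symbol is 1 library, its shape the library number, and each bar the mean of 3 libraries in mock (grey) or T-N1G (orange) cells. Ctgf and Cyr61 climb to their highest levels at 1.0 µM, Tpm1 and Tpm2 step down, and the treated grey points of Tagln lie below the vehicle ones while the orange ones overlap.

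Acta2 encodes smooth muscle alpha actin, the filament protein by which myofibroblasts are usually identified (chr19:34314826-34329863 in mm9, the build of the deposited positions). Values of a group are given here and below in the order of library numbers 1, 2 and 3. Mock cells held 778, 677 and 650.1 CPM under vehicle, 515, 449.7 and 503 at 0.3 µM and 526, 308 and 467 at 1.0 µM. T-N1G cells held 1341, 1215 and 932 CPM under vehicle, 977, 817 and 546 at 0.3 µM and 747, 755 and 526 at 1.0 µM. At each treatment the lowest T-N1G library lay above the highest mock library, although at 1.0 µM mock number 1 and T-N1G number 3 nearly met. The log2 difference between lines was 0.73 (SE 0.22, adjusted p = 0.0307) under vehicle, 0.67 (SE 0.22, adjusted p = 0.0171) at 0.3 µM and 0.64 (SE 0.22, adjusted p = 0.0172) at 1.0 µM. MG132 lowered Acta2 in T-N1G cells at both doses, with log2 differences of -0.58 (SE 0.22, adjusted p = 0.0303) and -0.78 (SE 0.22, adjusted p = 0.00371). In mock cells the fall passed at 1.0 µM, with -0.69 (SE 0.22, adjusted p = 0.00936), and at 0.3 µM the value was -0.52 (SE 0.22, adjusted p = 0.053) with no overlap of libraries, past the threshold with only the groups compared in the fit (adjusted p 0.000644).

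Several of these calls rested on single libraries. Between the lines under vehicle the call was lost without any 1 of the mock libraries (adjusted p 0.0535, 0.103 and 0.107) or without T-N1G number 1 (0.129) or 2 (0.0854), and at 0.3 µM without mock number 2 (0.0611) or T-N1G number 1 (0.0942). At 1.0 µM it was lost without mock number 2 (log2 0.39, adjusted p 0.12) or T-N1G number 1 (0.0889) or 2 (0.0652). The fall in mock cells at 1.0 µM was lost without vehicle number 1 (0.0588) or treated number 2 (0.0773), and the fall in T-N1G cells at 0.3 µM without vehicle number 1 (0.134) or 2 (0.089) or treated number 2 (0.0529) or 3 (log2 -0.36, adjusted p 0.16). With no filter on low counts the calls between lines under vehicle (0.0708) and at 1.0 µM (0.063) and that at 0.3 µM in T-N1G cells (0.079) were lost, and with only the groups compared those between lines at 0.3 µM (0.0698) and for 0.3 µM in T-N1G cells (0.125). All of these refits kept the direction. Acta2 shares 0.352% of its 50-base transcript windows with other genes, Actg1 among them.

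Acta1, skeletal muscle alpha actin, is the actin of the sarcomere's thin filament, whose promoter is a classical SRF target. It shares 2.22% of its 50-base transcript windows with other genes, among them Actb, whose level was 7123 ± 257 CPM in mock cells under vehicle and fell with MG132, so its trace level is uncertain and the part of shared fragments in it was not tested (chr8:126415658-126418675). It stood at 5.34, 4.81 and 4.97 CPM in mock cells under vehicle, 5.26, 5.24 and 5.46 at 0.3 µM and 4.23, 1.11 and 2.25 at 1.0 µM. In T-N1G cells it stood at 6.63, 7.59 and 4.88 CPM under vehicle, 4.41, 7.89 and 3.92 at 0.3 µM and 4.11, 1.18 and 2.76 at 1.0 µM. Library number 2 was the lowest at 1.0 µM in both lines, and no library at 1.0 µM reached those under vehicle. From vehicle to 1.0 µM the fall in mock cells was log2 -1.005 (SE 0.40, adjusted p = 0.035) and that in T-N1G cells -1.25 (SE 0.40, adjusted p = 0.00931), and the step from 0.3 to 1.0 µM was -1.08 (SE 0.40, adjusted p = 0.0349) and -1.01 (SE 0.40, adjusted p = 0.0396). The value in mock cells lost its call in 8 of 18 refits that each left out 1 library, among them treated number 2 (log2 -0.59, adjusted p 0.174), treated number 3 (0.0967), each vehicle library (0.0949, 0.0716 and 0.0791) and 3 T-N1G libraries (vehicle numbers 1 and 2, 0.0548 and 0.0505, and 1.0 µM number 3, 0.0548). The same value was lost with DESeq2's size factors (0.0526) and with no filter on low counts (0.0736). The dose steps lost theirs in 9 and 3 of 18, with adjusted p up to 0.14 in mock cells (without 1.0 µM number 2) and up to 0.201 in T-N1G cells (without 0.3 µM number 2). They were also lost with no filter (0.0677 for mock and 0.0561 for T-N1G cells), and the step in T-N1G cells with only the groups compared, without (0.0705) and with the block (0.154). In T-N1G cells the fall from vehicle held in all 18. Of the 5 skeletal and cardiac muscle markers tested, Ckm, Mb and Tnnt3 fell and Tnnc1 and Tnnt2 rose at 1.0 µM in both lines, and their part in the level of Acta1 was not tested. Acta1 did not pass between lines at any dose.

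Tagln (transgelin, or SM22 alpha) cross-links actin filaments and is an early marker of the smooth muscle programme (chr9:45671774-45744141). Its deposited locus spans Pcsk7 and Rnf214 as well, which had up to 1131 fragments in a library against 950 to 6244 for Tagln, and any part of theirs in its count was not tested. Mock cells went from 200.4, 179 and 162 CPM under vehicle to 82.4, 75.5 and 75.7 at 0.3 µM and 113, 50.2 and 68.6 at 1.0 µM. T-N1G cells held 289, 287 and 181 CPM under vehicle, 271, 239.9 and 144 at 0.3 µM and 378, 155 and 218 at 1.0 µM. Treated mock libraries all lay below the vehicle libraries, while the T-N1G groups overlapped one another at every dose. In mock cells the fall was log2 -1.21 (SE 0.35, adjusted p = 0.00993) at 0.3 µM and -1.22 (SE 0.35, adjusted p = 0.00673) at 1.0 µM. In T-N1G cells the differences from vehicle were -0.21 (adjusted p = 0.624) and -0.012 (adjusted p = 0.976). Tagln was 2.80-fold the mock level in T-N1G cells at 0.3 µM, log2 1.49 (SE 0.35, adjusted p = 0.00324), and 3.24-fold at 1.0 µM, log2 1.70 (SE 0.35, adjusted p = 0.000891), with no overlap of libraries at either dose. Under vehicle the value was 0.48 (adjusted p = 0.386), with T-N1G number 3 among the mock libraries. The difference of the responses themselves did not pass at 0.3 µM, 1.00 (SE 0.49, adjusted p = 0.154), or at 1.0 µM, 1.21 (SE 0.49, adjusted p = 0.0581). With the library number as a block it passed at 1.0 µM (adjusted p 0.0166, and 0.0267 with only the groups compared), and at 0.3 µM with the block and only the groups compared (0.0139). At 1.0 µM it also passed with DESeq2 (0.045), with scaling by library size only (0.0484) and without the number 1 libraries at 1.0 µM (0.0342), which also let the 0.3 µM value pass (0.0434). It passed at 1.0 µM as well without mock number 1 (log2 1.53, adjusted p 0.0179) and without T-N1G number 2 (1.46, 0.0215).

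Myl9 encodes the regulatory light chain of smooth muscle and nonmuscle myosin, whose phosphorylation switches contraction on (chr2:156601200-156607393). It showed the widest gap between the lines under vehicle among the 9: 17.0, 11.8 and 10.4 CPM in mock and 61.3, 52.5 and 29.7 in T-N1G cells, 3.66-fold, log2 1.87 (SE 0.39, adjusted p = 0.00446). T-N1G cells held 18.1, 12.7 and 7.93 CPM at 0.3 µM and 8.72, 10.3 and 10.2 at 1.0 µM, all below every vehicle library, and mock cells held 9.13, 6.80 and 7.95 CPM at 0.3 µM and 8.62, 2.32 and 9.16 at 1.0 µM. The fall in T-N1G cells was log2 -1.89 (SE 0.39, adjusted p = 0.000774) at 0.3 µM and -2.29 (SE 0.40, adjusted p = 0.000121) at 1.0 µM, or 4.89-fold. In mock cells the differences were -0.71 (adjusted p = 0.158) and -0.96 (adjusted p = 0.0537), also without overlap of libraries, and number 2 at 1.0 µM stood alone at the bottom. The fall in mock cells passed at 0.3 µM in 2 of 27 refits, among them that with only the groups compared (adjusted p 0.0176). At 1.0 µM it passed in 5 of 27, among them those with library size alone (0.032) and without mock number 3 (log2 -1.27, adjusted p 0.0352). After MG132 the lines overlapped, with differences of 0.70 (adjusted p = 0.179) at 0.3 µM and 0.54 (adjusted p = 0.291) at 1.0 µM. The responses of the lines differed by log2 -1.17 (SE 0.56, adjusted p = 0.146) at 0.3 µM and -1.33 (SE 0.58, adjusted p = 0.0752) at 1.0 µM, neither of which passed. At 1.0 µM this difference passed without mock number 2 (log2 -1.79, adjusted p 0.00455) and without T-N1G vehicle number 3 (-1.63, 0.0309), and at 0.3 µM without mock 1.0 µM number 2 (adjusted p 0.0487).

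Cnn1, the calponin of differentiated smooth muscle and a brake on actomyosin ATPase (chr9:21903697-21913665), did not pass in any comparison. Mock libraries ran from 1.62 to 5.02 CPM and T-N1G libraries from 0.829 to 3.10. The highest, mock number 2 at 1.0 µM, was the library in which the other 8 genes stood lowest in their group. At 1.0 µM mock cells differed from vehicle by 0.68 (SE 0.37, adjusted p = 0.112) and T-N1G cells by 0.36 (SE 0.38, adjusted p = 0.408), opposite in sign to those of Acta2 and the tropomyosins, and in mock cells it passed without treated number 1 (log2 0.99, adjusted p 0.031), without vehicle number 1 (1.01, 0.0456) or without T-N1G vehicle number 3 (0.74, 0.0404). The standard errors of its differences between groups, 0.37 to 0.39 against 0.10 for Tpm1, limited what could pass.

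The tropomyosins Tpm1 (chr9:66870400-66897020) and Tpm2 (chr4:43526598-43536426) lie along actin filaments and gate the access of myosin, and gene totals here sum their muscle and nonmuscle isoforms. Tpm1 had 829.8, 801 and 745 CPM in mock cells under vehicle, 573, 550.4 and 555 at 0.3 µM and 606, 483 and 519 at 1.0 µM. In T-N1G cells it had 1038, 1121 and 1055 CPM under vehicle, 578, 621 and 493 at 0.3 µM and 465, 488 and 392 at 1.0 µM. Every treated library of either line lay below every vehicle library of that line. The fall was log2 -0.50 (SE 0.10, adjusted p = 0.000388) and -0.56 (SE 0.10, adjusted p = 7.2e-05) at 0.3 and 1.0 µM in mock cells and -0.93 (SE 0.10, adjusted p = 3.59e-07) and -1.26 (SE 0.10, adjusted p = 2.69e-09) in T-N1G cells. T-N1G cells were higher under vehicle, by 0.44 (SE 0.10, adjusted p = 0.00556), level with mock cells at 0.3 µM, with 0.012 (adjusted p = 0.933), and lower at 1.0 µM, with -0.26 (SE 0.10, adjusted p = 0.0337), where the libraries of the lines overlapped. That last call was lost without mock number 1 (adjusted p 0.0878) or T-N1G number 3 (0.0716), and with only the groups compared (0.15).

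Tpm2 had 266, 264 and 255 CPM in mock cells under vehicle, 179, 168 and 167 at 0.3 µM and 162, 133 and 136 at 1.0 µM, each dose below the last without overlap, although the step from 0.3 to 1.0 µM did not pass, -0.26 (SE 0.16, adjusted p = 0.186). In T-N1G cells it had 325, 310.0 and 238 CPM under vehicle, 176, 168 and 134 at 0.3 µM and 99.2, 112 and 65.4 at 1.0 µM, again with each dose below the last. The fall was log2 -0.61 (SE 0.16, adjusted p = 0.00322) and -0.87 (SE 0.16, adjusted p = 0.000103) for mock cells at the lower and higher dose, and -0.87 (SE 0.16, adjusted p = 0.000129) and -1.66 (SE 0.16, adjusted p = 5.1e-08) for T-N1G cells, 3.16-fold at the higher dose. From 0.3 to 1.0 µM both tropomyosins fell further in T-N1G cells, with log2 differences of -0.33 (SE 0.10, adjusted p = 0.00881) for Tpm1 and -0.79 (SE 0.16, adjusted p = 0.000442) for Tpm2. The Tpm1 step was lost with only the groups compared (-0.32, adjusted p 0.0595). Under vehicle the lines overlapped for Tpm2, with 0.15 (adjusted p = 0.56), and at 1.0 µM the difference was -0.64 (SE 0.16, adjusted p = 0.0021) with no overlap and T-N1G cells lower.

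The tropomyosins were the genes of the 9 whose response differed between the lines in this fit by the test of the difference itself. At 1.0 µM the response of T-N1G cells minus that of mock cells was log2 -0.69 (SE 0.14, adjusted p = 0.000669) for Tpm1 and -0.79 (SE 0.22, adjusted p = 0.00759) for Tpm2, where 22.9% of all genes passed the same test upwards and 22.1% downwards (45.0% in all). At 0.3 µM Tpm1 alone passed, -0.42 (SE 0.14, adjusted p = 0.0352), where 14.2% of all genes passed upwards and 11.0% downwards (25.1% in all). The counts, 2 and 1 of 9, are near the shares passing downwards and are no result about the 9 genes. The values at 1.0 µM held in all 18 refits without 1 library. The value at 0.3 µM was lost in 9 of 18, with adjusted p up to 0.102, and without the number 3 T-N1G libraries under vehicle and at 0.3 µM (0.13): it was lost without mock vehicle number 2 or 3, any 1 mock library at 0.3 µM, T-N1G vehicle number 2 or 3, or T-N1G number 1 or 3 at 0.3 µM. For the other genes the differences at 1.0 µM ran from -1.33 (Myl9) to 1.21 (Tagln), and a p that misses the threshold does not show that the lines responded alike.

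**Figure D2:**
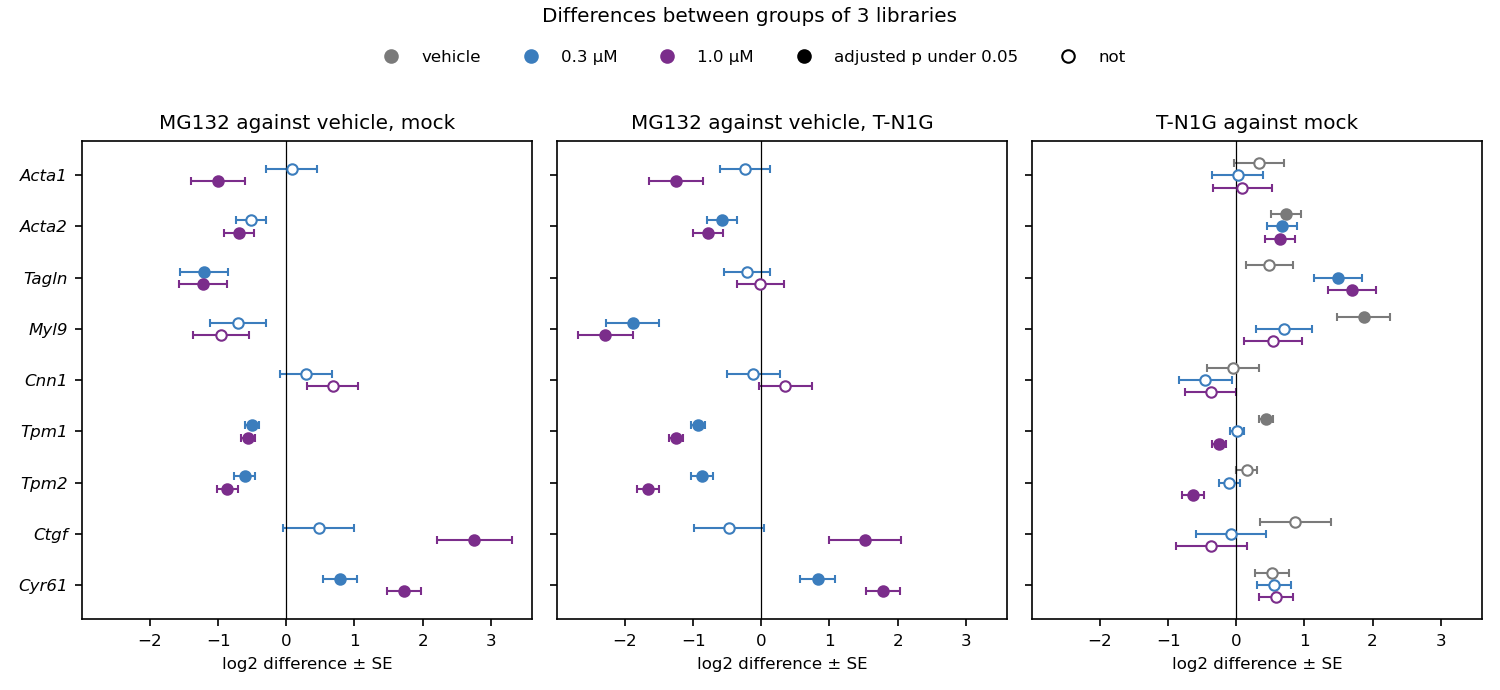
Log2 differences between groups (points, horizontal axis) with their standard errors (bars) for the 9 genes (vertical axis), for MG132 against vehicle in each line and for T-N1G against mock at each treatment. Filled points passed at an adjusted p under 0.05. Among them are both tropomyosins against vehicle at both doses in both lines, Ctgf at 1.0 µM only, and Acta2 between the lines at every treatment.

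Ctgf (connective tissue growth factor, CCN2) is a secreted protein of the matrix that promotes fibrosis (chr10:24315248-24318488). Mock cells held 302, 242 and 261 CPM under vehicle, 433, 339 and 344 at 0.3 µM and 3379, 874 and 1184 at 1.0 µM. T-N1G cells held 645, 531 and 293 CPM under vehicle, 453, 381 and 221 at 0.3 µM and 2463, 747 and 1017 at 1.0 µM. In both lines library number 1 stood far above the rest at 1.0 µM, yet every library at 1.0 µM lay above every library at the lower doses of its line. The rise from vehicle was 6.76-fold in mock cells, log2 2.76 (SE 0.55, adjusted p = 0.000509), and 2.88-fold in T-N1G cells, 1.53 (SE 0.53, adjusted p = 0.0173). At 0.3 µM the differences were 0.47 (adjusted p = 0.464) and -0.48 (adjusted p = 0.449). In mock cells the libraries at 0.3 µM all lay above those under vehicle. With only the groups compared in the fit, that rise passed (log2 0.49, adjusted p 0.0338). The steps from 0.3 to 1.0 µM were 2.28 (SE 0.54, adjusted p = 0.00353) and 2.00 (SE 0.53, adjusted p = 0.00563). Without the number 1 libraries at 1.0 µM mock cells rose by log2 2.01 and T-N1G cells by 0.87, and both still passed. With only T-N1G number 1 left out, the value in T-N1G cells was 0.87 and did not pass (adjusted p 0.132), and without T-N1G vehicle number 3 it was 1.27 (0.0632). The dose steps without the number 1 libraries were 1.51 and 1.32. Between the lines Ctgf did not pass, with 0.87 (adjusted p = 0.295) under vehicle, where T-N1G number 3 fell among the mock libraries, and -0.081 (adjusted p = 0.911) and -0.36 (adjusted p = 0.561) under MG132. The difference at 1.0 µM turned to 0.40 without mock number 1. Likewise the difference of responses at 1.0 µM was -1.23 (SE 0.73, adjusted p = 0.191) and ran from -1.95 without T-N1G number 1 (adjusted p 0.0382) to -0.48 without mock number 1.

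Cyr61 (CCN1), the sister protein that binds integrins and is induced within minutes to hours by serum and strain, is encoded at chr3:145309935-145312949. Mock cells held 474, 403 and 419 CPM under vehicle, 793, 718 and 729.7 at 0.3 µM and 2018, 923 and 1348 at 1.0 µM. T-N1G cells held 725, 671 and 468 CPM under vehicle, 1338, 1188 and 776 at 0.3 µM and 2525, 1764 and 2138 at 1.0 µM. Each dose lay above the one before it in both lines without overlap of libraries. Cyr61 had already passed at 0.3 µM, with log2 0.79 (SE 0.25, adjusted p = 0.0148) for mock and 0.83 (SE 0.25, adjusted p = 0.00996) for T-N1G cells. Ctgf had not in the same fit, although in mock cells it did with only the groups compared. The rise of Cyr61 at 1.0 µM was 1.73 (SE 0.26, adjusted p = 2.06e-05) and 1.79 (SE 0.26, adjusted p = 1.08e-05), 3.31-fold and 3.45-fold. The call at 0.3 µM in T-N1G cells was lost without treated number 1 (log2 0.66, adjusted p 0.0502). The difference between the responses of the 2 lines was 0.035 ± 0.35 (SE) at 0.3 µM and 0.06 ± 0.35 at 1.0 µM. T-N1G cells had more Cyr61 on average at each treatment, by 0.52 (adjusted p = 0.176), 0.56 (adjusted p = 0.0756) and 0.58 (adjusted p = 0.0529), and none passed. The difference at 1.0 µM passed without mock number 1 (log2 0.86, adjusted p 0.00464) or T-N1G number 2 (0.70, 0.04), and that at 0.3 µM without T-N1G number 3 (0.75, 0.0221) or without mock number 1 or 2 at 1.0 µM (0.0317 and 0.0307).

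Same-numbered libraries deviated together in 2 of the group pairs compared above. Between the lines at 1.0 µM the block over all 18 libraries added Cyr61 to the calls (0.61, adjusted p 0.0132), and the block over the 6 libraries compared also added Ctgf (-0.32, 0.00527), which raised the count from 4 to 5 and 6 (64.5% and 65.4% of all genes). Between vehicle and 0.3 µM in T-N1G cells the block over all libraries left the 5 calls as they were (62.0% of all genes), and the block over the 6 libraries compared added falls of Ctgf (-0.45, 5.28e-09) and Tagln (-0.21, 0.000408), 7 in all (77.1% of all genes). The differences of responses, which hold these pairs, passed for Tagln as given above, and with the block and only the groups compared at 0.3 µM also for Myl9 (-1.20, 0.00388) and Ctgf (-0.95, 0.0498). A block over 6 libraries leaves few residual degrees of freedom, and that setting was chosen after seeing the data. It gave Acta2 an adjusted p of 6.91e-32 at 0.3 µM in mock cells, where the numbers do not pair. Its small p-values are therefore to be read with caution.

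In several groups most of the 9 genes were highest or lowest in the same library. T-N1G number 3 was the lowest of its group for 8 of the 9 under vehicle and for 9 of 9 at 0.3 µM, where 33.4% and 34.8% of all genes were lowest in that library. Mock number 1 was the highest under vehicle for 9 of 9 (32.4% of all genes), and mock number 2 the lowest at 1.0 µM for 8 of 9 (31.2%), Cnn1 being the exception. The spread was wide for most: the SD of log2 CPM of Ctgf in mock cells at 1.0 µM was 1.02 and exceeded that of 99.2% of 11758 genes, Myl9 had 1.09 (99.3%) and Acta1 0.921 (98.9%), whereas Tpm1 had 0.168 (47.0%) and Tpm2 0.153 (41.9%). Under vehicle in T-N1G cells Tpm1 had 0.0588 (33.2%) and Myl9 0.549 (98.2%). Precision therefore differed between the genes, and a log2 difference of 0.44 passed for Tpm1 between lines under vehicle while 0.87 did not for Ctgf. Without the number 3 T-N1G libraries under vehicle and at 0.3 µM, 3 of 9 were called between lines under vehicle (10.7% of all genes in the same refit), and 4 of 9 at 0.3 µM (48.7%) and 6 of 9 at 1.0 µM (72.0%) against vehicle in T-N1G cells, Acta2 (0.0645) and Ctgf (0.0581) being the ones lost. In mock cells at 1.0 µM the same refit, which shares its estimate of spread, called 9 of 9 (67.7%). What set these libraries apart was not tested.

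**Figure D3:**
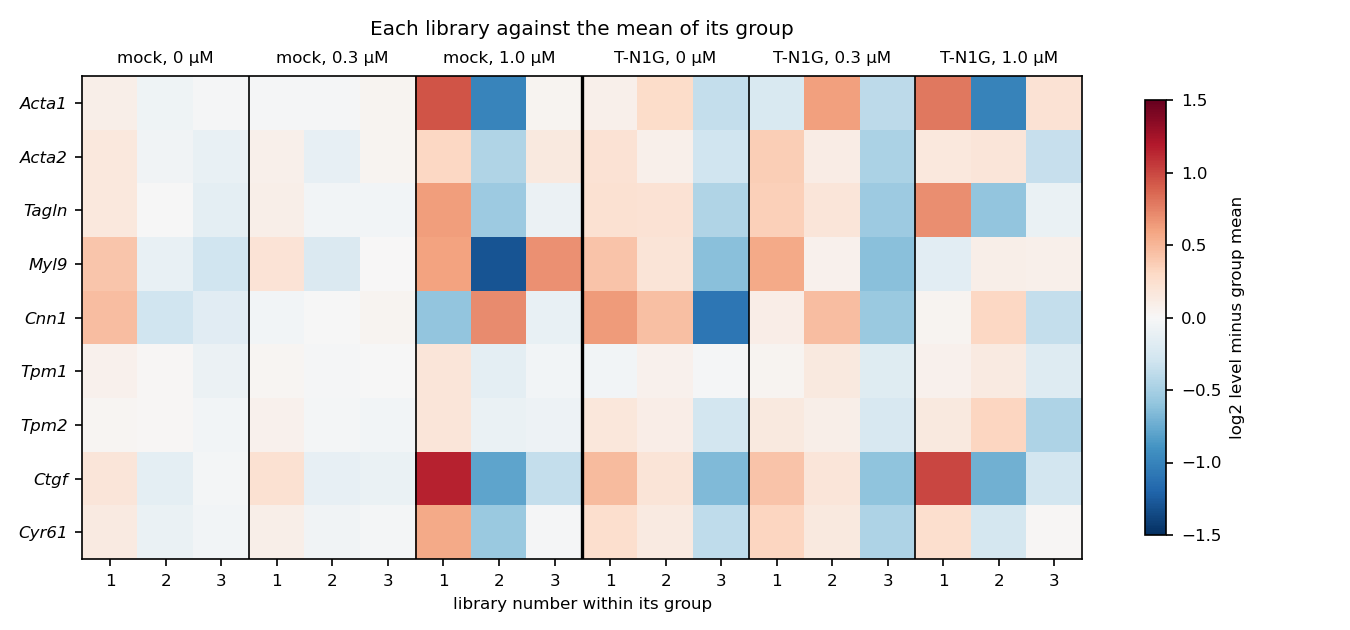
Log2 level of each gene (vertical axis) in each of the 18 libraries minus the mean of its group (colour, red above and blue below), with libraries in columns by group and number and vehicle written as 0 µM. The T-N1G number 3 columns under vehicle and at 0.3 µM are blue for nearly all 9 genes, and the columns at 1.0 µM hold the deepest colours.

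Relatives of the 9 genes were listed to see whether their behaviour was shared by their families. Of 17 paralogues, 15 were tested. Under vehicle 4 were higher and 1 lower in T-N1G cells, median 0.24: the enteric smooth muscle actin Actg2 at 1.78 (SE 0.43, adjusted p = 0.00784), Tagln3 at 1.09 (adjusted p = 0.00682), Myl6, the essential light chain partner of Myl9, at 0.52 (SE 0.12, adjusted p = 0.00673), Tagln2 at 0.25 (adjusted p = 0.0432), and, downwards, Nov (CCN3) at -1.05 (SE 0.23, adjusted p = 0.00531). The call of Tagln2 was lost in several refits without 1 library. At 1.0 µM MG132 8 of 15 fell in mock cells and 12 of 15 in T-N1G cells, and none rose in either, with medians of -0.48 and -1.16. Of all genes tested, 37.4% were called lower and 32.4% higher in mock cells (69.7% in all). In T-N1G cells the shares were 38.9% lower and 37.5% higher (76.4% in all). The cytoplasmic actins Actb and Actg1 went down with Acta2: Actb fell from 7123 ± 257 to 3958 ± 109 CPM in mock cells, log2 -0.85 ± 0.10, and from 7171 ± 464 to 2623 ± 437 in T-N1G cells, -1.45 ± 0.11, and Actg1 with -0.51 ± 0.11 and -0.88 ± 0.11. The nonmuscle calponin Cnn2 fell with log2 differences of -1.46 ± 0.12 and -2.62 ± 0.13, Tpm4 with -0.48 ± 0.10 and -1.04 ± 0.10, Myl6 with -1.34 ± 0.12 and -1.80 ± 0.13, Myl12b with -1.09 ± 0.12 and -1.64 ± 0.12, and Tagln2 with -0.27 ± 0.082 and -1.16 ± 0.083 (each ± SE, adjusted p at most 0.00676). The CCN family split. While Ctgf and Cyr61 rose, Wisp2 (CCN5) fell in mock and T-N1G cells, with log2 differences of -2.30 ± 0.34 and -3.13 ± 0.35, and Nov and Wisp1 fell in T-N1G cells with -2.66 ± 0.28 and -0.83 ± 0.20. Actg2 and Cnn3 also fell in T-N1G cells, with -1.39 ± 0.42 and -0.66 ± 0.077. In the test of the difference of responses at 1.0 µM, 9 of the 15 paralogues were more negative in T-N1G cells and none more positive. Of all genes, 22.1% passed that test downwards and 22.9% upwards.

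The lists that follow are to be read against the shares of all genes called in the same comparisons, given above. Genes of the smooth muscle contractile apparatus (17 tested of 18) were called 7 higher and 0 lower in T-N1G cells under vehicle, median 0.52. The largest were Actg2, above, and Mylk, the kinase that phosphorylates Myl9, at 1.57 (SE 0.34, adjusted p = 0.00339) on 6 to 11 fragments per mock library and 21 to 26 per T-N1G library. At 1.0 µM the list gave 3 higher and 3 lower in mock cells, median 0.11, and 4 higher and 10 lower in T-N1G cells, median -0.80. Cnn2 moved furthest downwards, and Mrvi1, an inositol trisphosphate receptor partner, was called higher in both lines from 1 to 2 fragments per mock vehicle library to 3 to 11, and from 1 to 10 to 13 to 22 in T-N1G libraries. The 11 smooth muscle and pericyte markers, which share genes with this list, summed to 262 to 310 CPM in mock and 242 to 286 CPM in T-N1G cells under vehicle, 245 to 256 and 128 to 152 CPM at 0.3 µM, and 270.1 to 393 and 197 to 290.1 CPM at 1.0 µM. Their part in the levels of the 9 genes was not tested. Kcnj8 was at 0 in 2 mock groups.

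Targets of SRF were taken by kind. Cytoskeletal targets of SRF and the MRTFs (22 tested of 23) were called 0 higher and 1 lower in T-N1G cells under vehicle, median 0.03, the 1 being Tln1 (talin) at -0.22 (SE 0.069, adjusted p = 0.0414), a call lost in several refits without 1 library. At 1.0 µM they were called 7 higher and 5 lower in mock cells and 4 higher and 12 lower in T-N1G cells, with medians of 0.085 and -0.32. Of all genes, 32.4% were called higher and 37.4% lower in mock cells, and 37.5% and 38.9% in T-N1G cells. The counts in mock cells do not exceed these shares and are no result about these targets. Examples were Fhl2, a LIM protein that binds SRF, at 1.42 (SE 0.13, adjusted p = 3.08e-08) and the LIM protein Pdlim5 at 1.42 (SE 0.21, adjusted p = 1.8e-05) in mock cells, and Actb and the actin-monomer binder Pfn1 at -1.30 (SE 0.12, adjusted p = 2.13e-08) in T-N1G cells. In the test of the difference of responses at 1.0 µM, 13 of 22 were more negative in T-N1G cells and none more positive. Of all genes, 22.1% passed it downwards and 22.9% upwards. Of the immediate-early targets, 8 of 8 rose at 1.0 µM in each line, with medians of 2.41 and 2.85. Egr2 at 5.26 (SE 0.59, adjusted p = 7.73e-07) and Egr3 at 3.93 (SE 0.46, adjusted p = 1.33e-06) led in mock cells, and Egr1 at 3.99 (SE 0.45, adjusted p = 2.07e-06) and Fosb at 3.77 (SE 0.47, adjusted p = 2.65e-06) in T-N1G cells. At 0.3 µM, 5 of the 8 rose and 1 fell in mock cells, where 25.0% of all genes rose and 28.1% fell. In T-N1G cells only 1 of the 8 rose at that dose, median 0.088, where 29.1% of all genes rose and 30.3% fell. Under vehicle Nr4a1 was lower in T-N1G cells at -0.64 (SE 0.18, adjusted p = 0.022).

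The other targets of YAP and TEAD were called in both directions. Of 20 tested, 7 rose and 7 fell at 1.0 µM in mock cells, and 2 rose and 12 fell in T-N1G cells, with medians of -0.11 and -0.49. The counts in mock cells are near the shares of all genes, 32.4% higher and 37.4% lower, and are no result about these targets. In T-N1G cells the shares were 37.5% higher and 38.9% lower. The growth arrest gene Gadd45a rose most, by log2 3.32 ± 0.10 (SE) in mock and 4.01 ± 0.10 in T-N1G cells, followed in mock cells by the forkhead factor Foxf2 at 2.04 ± 0.28. Igfbp3, an insulin-like growth factor binding protein, fell in T-N1G cells with a log2 difference of -1.83 ± 0.40 (adjusted p = 0.000424). Under vehicle 5 were higher and 1 lower in T-N1G cells, with Igfbp3 at 1.69 (SE 0.38, adjusted p = 0.00498) and Ccdc80 at 0.78 (SE 0.16, adjusted p = 0.00339). Among 17 components of the Hippo pathway, 7 rose and 4 fell at 1.0 µM in mock cells and 5 rose and 8 fell in T-N1G cells. Taken in either direction, these counts are near the shares of all genes called, 69.7% and 76.4%, and are no result about the pathway. Wwtr1, which encodes TAZ, rose by log2 0.94 ± 0.10 in mock cells, and Tead3 fell in both lines, with -0.70 ± 0.10 for mock and -1.36 ± 0.10 for T-N1G cells, each with an adjusted p of at most 7.64e-06. All 4 TEAD genes fell in T-N1G cells at 1.0 µM, Tead2 with -1.68 ± 0.12, and, looked up after the values were seen, Tead1 with -0.42 ± 0.11 and Tead4 with -0.89 ± 0.18 (adjusted p at most 0.00274), whereas in mock cells Tead4 rose by log2 0.40 ± 0.17 (adjusted p = 0.0411). Tead4 was the 1 component called between lines under vehicle, at -0.67 (SE 0.17, adjusted p = 0.0109), and lost its call without T-N1G number 1.

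Of the 23 genes of the TGF-beta pathway and myofibroblast matrix, 5 were higher and none lower in T-N1G cells under vehicle, median 0.22, with the coreceptor Tgfbr3 at 1.21 (SE 0.22, adjusted p = 0.00108) and the matrix protein Tgfbi at 0.98 (SE 0.31, adjusted p = 0.0473), a call lost in most refits without 1 library. At 1.0 µM they gave 11 higher and 6 lower in mock cells, median 0.28, and 6 higher and 14 lower in T-N1G cells, median -0.64. The latent TGF-beta binding protein Ltbp2 rose by log2 2.89 ± 0.58 and 2.49 ± 0.56, and the inhibitory Smad6 fell with -2.59 ± 0.15 and -2.66 ± 0.15, with an adjusted p of at most 0.00112 for the 4 values.

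**Figure D4:**
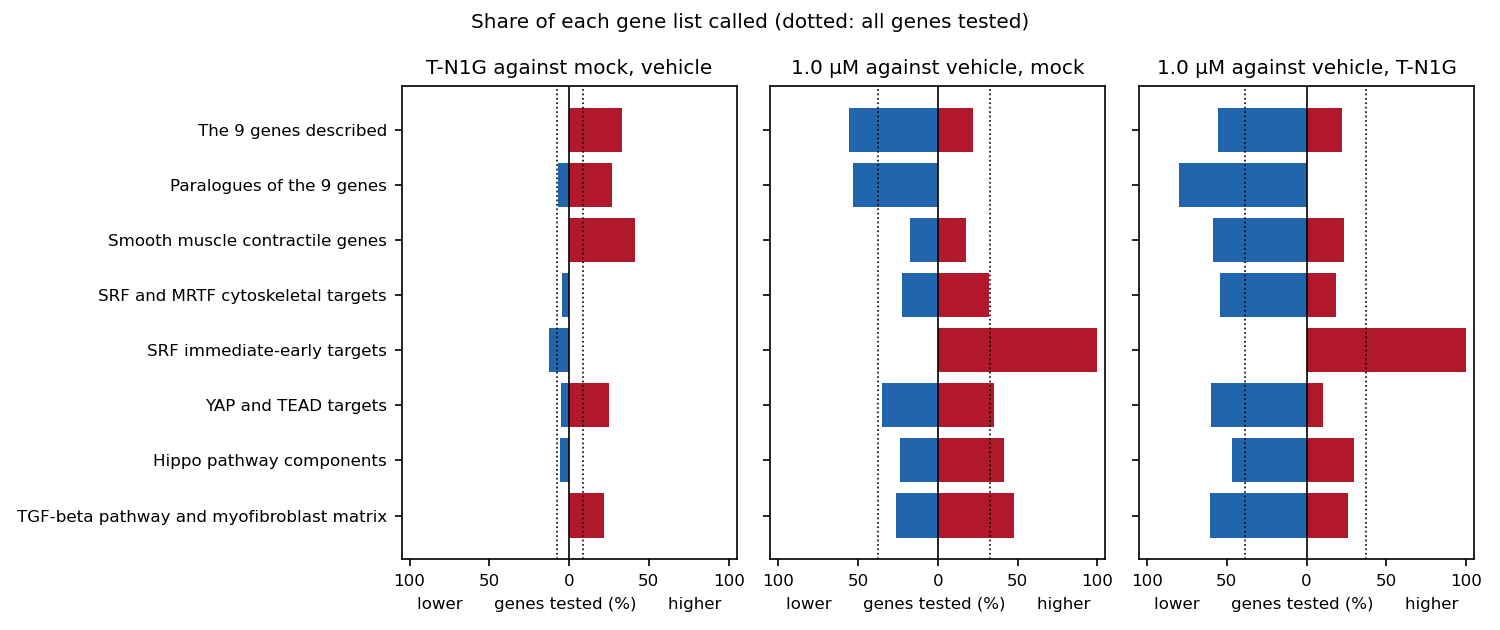
Share of the genes tested in each list that were called higher (right, red) or lower (left, blue) in 3 comparisons, as a percentage, with dotted lines at the share of all genes tested. The immediate-early SRF targets reach 100% higher at 1.0 µM in both lines, and the paralogues of the 9 genes show no gene higher there.

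The genes whose pattern over the 18 libraries was most like each of the 9 were sought among 11749 others by Pearson's r of log2 CPM, a description over libraries that fall into 6 groups and share their treatments. Acta2 was nearest to the collagen-binding proteoglycan Fmod (0.943) and the sheddase Adam10 (0.919), Tagln to Golim4 (0.960) and C1galt1c1 (0.958), and Myl9 to the Wnt antagonist Sfrp1 (0.925) and the collagen cross-linking enzyme Loxl2 (0.908). Tpm1 was nearest to Vkorc1l1 (0.981) and its own paralogue Tpm4 (0.959), and Tpm2 to Ssr4 (0.980) and Tcf19 (0.976). Ctgf was nearest to Enpp1 (0.945), and Cyr61 to the immediate-early gene Ier5 (0.971) and Serpina3h (0.962). The rare transcripts had looser neighbours, Ccdc127 (0.853) and Morf4l1-ps1 (0.851) for Acta1 and Cntnap1 (0.739) and Trip13 (0.659) for Cnn1. Among the 9 themselves r was highest for Acta2 with Myl9 (0.930), Tpm1 with Tpm2 (0.923), Acta2 with Tagln (0.842) and Ctgf with Cyr61 (0.820), and lowest for Tpm2 with Cyr61 (-0.790).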

How the data were processed

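Polyadenylated RNA was sequenced in 18 strand-specific libraries (SureSelect). TopHat2 2.0.8b, Cuffdiff 2.1.1, bcl2fastq 2.16.0.10 and the build mm9 are named in the submitters' processing notes. For the annotation and the strand setting the entry is: not given in the sources used here. Per the file headers, the authors' Cuffdiff table, as deposited, gives raw fragments per gene as estimated counts (98.16 to 98.51% whole within 1e-06) and FPKM. Cuffdiff's condition names served to assign line and dose, and its numbering the library numbers; the files state neither link.

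From the rounded estimated counts, edgeR 4.0.16 (limma 3.58.1, R 4.3.3) fitted 6 group means over 18 libraries (12 residual degrees of freedom, TMM, filterByExpr, robust quasi-likelihood test), with Benjamini-Hochberg adjustment over the 13258 genes left of 24318 in each of 11 comparisons. It was tested on simulated data. FPKM served to compare genes, with no test. The 20 genes with a failed FPKM and the 2 unprocessed ones, which stayed out of library sizes, hold none of the 9. Libraries of a group differed by more than sampling noise (chi-square per degree of freedom 2.81 to 54.3).

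Genes named beside the 9 are their paralogues, the 2 largest called changes of each pathway list in 3 comparisons (between lines under vehicle, and 1.0 µM against vehicle in each line), and the 2 nearest genes by correlation of log2 CPM (prior count 2, mean CPM of at least 1). A few of these, and 1 list, are not reported here. The 9 genes and all lists were chosen with earlier results of these data known. Alternatives were DESeq2 1.42.0 and its size factors, library size alone, no filter, only the groups compared, a replicate block, and leaving out each library. Those chosen after seeing the data left out the number 3 T-N1G libraries under vehicle and at 0.3 µM or the number 1 libraries at 1.0 µM, or joined the block with only the groups compared.

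Same-numbered libraries deviated together (each correlation of deviations from group means over 0.1) in 2 of 15 pairs of groups, mock with T-N1G cells at 1.0 µM (0.415 to 0.586) and T-N1G cells under vehicle with 0.3 µM (0.198 to 0.345); the range over all pairs was -0.135 to 0.586. The pairing is read from the data, not from the labels.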

Additional observations from a re-analysis of the deposited data

Results flagged for a closer look

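The response of Tpm1 to MG132 differed between the lines by the interaction test of edgeR's quasi-likelihood fit, with a log2 difference of responses of -0.42 at 0.3 µM (adjusted p = 0.0352) and -0.69 at 1.0 µM (adjusted p = 0.000669), T-N1G cells falling further. Tpm2 did so at 1.0 µM, with -0.79 (adjusted p = 0.00759). Of all genes tested, 22.1% passed downwards at 1.0 µM (45.0% in all) and 11.0% at 0.3 µM (25.1% in all). The counts, 2 and 1 of 9, are near the downward shares and are no result about the 9 genes. Of their 15 paralogues tested, 9 also passed downwards at 1.0 µM. The 1.0 µM differences passed in all 18 refits without 1 library, and the Tpm1 difference at 0.3 µM in 9 of 18.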

How the results depend on the processing

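Counts of the 9 genes called stayed within 1.5 times the main count in 92 refits under other settings (7 outside) and in 186 without 1 library (12 outside). The exceptions follow, with the share of all genes called in the same refits. Between lines at 0.3 µM, 1 gene was called with only the groups compared (64.4%) and 1 to 3 without 1 library (40.4 to 51.2%), against 2 (48.5%). For 0.3 µM against vehicle in mock cells, 7 were called with only the groups compared, with (77.0%) or without (73.8%) the replicate block, against 4 (53.1%). From 0.3 to 1.0 µM in T-N1G cells 3 were called with only the groups compared (50.1%), against 5 (60.0%). For the interaction at 0.3 µM, 0 to 2 were called without 1 library (19.9 to 28.4%), 0 without the number 3 T-N1G libraries under vehicle and at 0.3 µM (18.2%), 2 without the number 1 libraries at 1.0 µM (30.8%) and 4 with the replicate block and only the groups compared (50.2%), against 1 (25.1%). The cause was not tested.

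Of the refits of single genes, 14 under other settings and 35 without 1 library turned a log2 difference, none of them called. Between lines at 0.3 µM, Tpm1 was at -0.00044 with DESeq2's size factors, -0.0079 with library size alone and -0.00045 with DESeq2 (-0.060 to 0.096 without 1 library), Acta1 at -0.0033 with library size alone and -0.012 with the block and only the groups compared (-0.35 to 0.20), and, without the number 3 libraries, Tpm2 at 0.00088 (-0.18 to 0.0037) and Ctgf at 0.16 (-0.30 to 0.16). For 1.0 µM in T-N1G cells, Tagln was at 0.041 with DESeq2's size factors, 0.041 with DESeq2 and 0.0040 with only the groups compared (-0.42 to 0.23), and for 0.3 µM at -0.39 to 0.037 without 1 library, beside Cnn1 at -0.47 to 0.20. Under vehicle between lines Cnn1 was at 0.32 without the number 3 libraries (-0.35 to 0.32 without 1 library). At 1.0 µM between lines, leaving out 1 library gave -0.38 to 0.60 for Acta1, -0.67 to 0.0018 for Cnn1 and -1.08 to 0.40 for Ctgf. The interaction at 1.0 µM of Cyr61 was -0.0071 with no filter and -0.16 without the number 3 libraries (-0.23 to 0.34), and ran from -0.72 to 0.26 for Acta1, -0.34 to 0.020 for Acta2 and -0.74 to 0.050 for Cnn1. At 0.3 µM the interaction of Acta2 was 0.0030 without the number 3 libraries (-0.25 to 0.15), and that of Cyr61 ran from -0.14 to 0.24.

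In the comparisons whose library numbers do not pair, the replicate block over all libraries added Cyr61 between lines at 0.3 µM (0.54, adjusted p = 0.0327), and Acta2 at 0.3 µM (-0.51, 0.0222) and Myl9 at 1.0 µM (-0.94, 0.0442) against vehicle in mock cells, and changed no other call of the 9 genes there. Fragments per library limit Cnn1 (18 to 95) and Acta1 (21 to 165), and 3 libraries a group limit all values.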
